A study of Homo sapiens with 6 samples.

Results

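BICDL1 was followed through its 10 guides in a pooled CRISPR screen of synovial sarcoma cells. They are all guides that the count table assigns to the gene, out of 3653 guides in all, of which 183 are non-targeting and the others belong to 348 genes. A guide is a short RNA that directs the nuclease Cas9 to cut 1 matching site, and a non-targeting guide has no intended site. Guides are called here by their library numbers, and those of BICDL1 form 2 runs, 2456 to 2460 and 3377 to 3381. BICDL1 was selected on the guide counts of these same libraries, in which its guide median and its summed counts conflict, so its own values are a description and carry no test.

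The screen used HS-SY-II, an established human synovial sarcoma line that carries an SS18::SSX fusion gene, with Cas9 expressed in the cells. The 6 libraries count guides in genomic DNA. Of these, 2 came from tumours that the cells formed under the skin of athymic nude mice, 2 from cells kept in culture for 14 days (day 14), and 2 from cells frozen after puromycin selection (day 0). All of the cells carried Cas9 and the lentiviral guide library, and the tumours and cultures were grown from the selected cells. By the methods, transduction was done in duplicate and each replicate supplied cells to both settings. The labels number the tumours 1 and 2, whereas the supplement of the study names both as mice of replicate 1, so it is not settled that the tumours came from separate transductions. The p-values measure the spread between these samples, which for the tumours may leave out that between transductions. Nude mice lack T cells, and the line is a single cell line, so the tumours represent growth of these cells in a host with little adaptive immunity.

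BICDL1 encodes a coiled-coil adaptor protein, also named BICDR-1, that links cargo to dynein, a motor that moves along microtubules towards the cell centre, and to its activator dynactin. It binds Rab6, a small GTPase on secretory vesicles, and the kinesin KIF1C, and it has been studied mostly in developing neurons of rodents and zebrafish. A cell that depends on a gene grows less well after the gene is cut, and guides against that gene then take a smaller share of the pool as the culture or tumour grows.

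BICDL1 lies on chromosome 12 of hg38, from 119989236 to 120094494 on the plus strand (ENSG00000135127.12 in GENCODE v44). Its main annotated transcript has 10 exons, each of which holds coding sequence, and encodes 621 residues. The coding exons offer 301 sites where 20 bases stand next to the NGG motif that Cas9 needs and the cut falls in coding sequence. Each of those 301 sites matched the genome exactly at 1 place beside an NGG. Which of the sites the 10 guides cut was not analysed here. The nearest gene of the library on the same chromosome, TAOK3, lies 1616329 bases away.

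Depth was 3394352 to 21854232 counts per library, with day 0 replicate 1 the deepest. Values below are CPM, counts scaled to a common library size by TMM, which sets the libraries level on the bulk of their guides. All 10 guides of BICDL1 were among the 3607 with a mean of at least 30 counts at day 0. On this scale the median non-targeting guide was higher than at day 0 in each later library, by a log2 change of 0.61 and 0.40 in the tumours and 0.56 and 0.53 at day 14. Changes of BICDL1 given below are not shifted by these values. A change of 1 on the log2 scale is a factor of 2.

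In culture the guides of BICDL1 were lower together. All 10 were below their day 0 mean in both day 14 libraries, and 9 and 8 of them were at least 2-fold lower. The same was true of 20.5% and 20.3% of all guides and of 0.546% and 1.64% of the non-targeting guides. In the fit of each guide across libraries (edgeR), the log2 fold changes of day 14 over day 0 lay between -2.29 for guide 2456 and -1.05 for guide 2459. Their SD over the 10 guides was 0.37, against a median SD of 0.78 over genes, which placed BICDL1 339th of the 348 genes from the widest spread. Changes in a single library ranged more widely, between -5.93 for guide 2456 in replicate 1 and -0.23 for guide 3379 in replicate 2.

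In tumours the same guides came apart. Of the 10, 9 were lower than at day 0 in each tumour and 1, guide 2458, was higher in each. In tumours 1 and 2, 6 and 8 of the 10 were at least 2-fold lower. This was so for 28.6% and 28.9% of all guides and for 3.8% and 8.7% of the non-targeting guides. Log2 fold changes of the tumours over day 0 ran between -6.13 for guide 2456 and 3.51 for guide 2458. Their SD over guides was 2.54, against a median SD of 1.35 over genes, which placed BICDL1 41st of the 348 genes from the widest spread. Below guide 2458, the next highest guide was at -0.67. The split of 9 lower and 1 higher was the same with median-ratio, non-targeting and total count scaling.

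Guide 2458 had 5933 and 3264 CPM in the tumours, 173 and 86.3 CPM at day 14, and 435 and 371 CPM at day 0. Its raw counts were 21402 and 21453 in the tumours, with 663 and 389 after culture and 10676 and 1910 at the start. The 3 groups did not overlap, which was so for 18.8% of all guides, with both tumours above both day 0 libraries and both cultures below them. Against the day 0 mean of log2(CPM + 1), it was 14.7-fold and 8.10-fold higher in the tumours and 2.31-fold and 4.62-fold lower in the cultures. Among the 3607 guides it was the 5th and the 22nd most abundant in the tumours, the 2097th and 2931st after culture, and the 318th and 520th at the start.

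In the fit, guide 2458 had a log2 fold change of 3.51 (SE 0.59) in tumours over day 0, -1.64 (SE 0.55) at day 14 over day 0, and 5.15 (SE 0.64) in tumours over day 14. Only 1 and 3 of the 183 non-targeting guides had a larger change against day 0 in the tumours. Taken singly, tumours 1 and 2 had 8.74% and 8.20% of the non-targeting guides at least 4-fold higher, and 5.99% and 6.82% of all guides. At 4-fold or more, 52 of the 3607 guides were higher in both tumours, 2 of them non-targeting. At 2-fold or more, 505 guides were lower in both cultures, 1 of them non-targeting. Guide 2458 was the single guide in both of these sets, a count whose folds were chosen after its values had been seen.

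The neighbouring guides of the first run ranged between near absence and a slight reduction in tumours. Guide 2456 had 1.66 and 2.28 CPM in the tumours, 1.31 and 56.1 CPM at day 14, and 130 and 151 CPM at day 0. It was near the floor of both tumours, at 6 and 15 counts, and the cultures differed 43.0-fold in CPM, with 5 counts in replicate 1 and 253 in replicate 2. Guide 2457 had 17.2 and 2.89 CPM in the tumours, 44.9 and 62.8 CPM at day 14, and 171 and 98.2 CPM at day 0. The groups of guide 2457 did not overlap, with the tumours below the cultures and the cultures below day 0, an order found without overlap in 7.37% of all guides.

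Guides 2459 and 2460 were abundant at day 0 and, of the 9 reduced guides, had the smallest fitted log2 fold changes in tumours over day 0, at -0.67 and -1.17. Guide 2459 had 403 and 316 CPM in the tumours, 272 and 279 CPM at day 14, and 631 and 513 CPM at day 0. Its tumours lay between its cultures and its day 0 libraries, without overlap. In any order, the 3 groups did not overlap in 18.8% of all guides. Guide 2460 had 325 and 66.8 CPM in the tumours, 207 and 173 CPM at day 14, and 404 and 478 CPM at day 0. Tumour 1 of guide 2460 was above both cultures and tumour 2 below both, so the direction against culture differed between the tumours.

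In the second run, guides 3377 and 3381 were lower in tumours than in culture. Guide 3377 had 3.05 and 28.3 CPM in the tumours, 87.5 and 120 CPM at day 14, and 301 and 146 CPM at day 0. Guide 3381 had 18.9 and 45.5 CPM in the tumours, 88.5 and 64.1 CPM at day 14, and 223 and 302 CPM at day 0. For both guides the tumours were below the cultures and the cultures below day 0, without overlap, as in 7.37% of all guides. Guide 3380 had 12.2 and 58.4 CPM in the tumours, 96.1 and 49.9 CPM at day 14, and 221 and 159 CPM at day 0. Its tumours and cultures overlapped, and both were below day 0.

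Guide 3378 stood at about the same level in tumours and cultures, below day 0. It had 71.0 and 72.4 CPM in the tumours, 102 and 61.2 CPM at day 14, and 221 and 210 CPM at day 0. Guide 3379 was the one whose day 0 libraries did not give a common starting level, at 12.1 CPM in replicate 1 and 150 CPM in replicate 2, a 12.5-fold difference. It had 24.7 and 0.609 CPM in the tumours and 13.8 and 37.0 CPM at day 14, so all 3 groups overlapped.

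Guides of BICDL1 differed more between the tumours than between the cultures. The median absolute log2 difference between replicates over the 10 guides was 1.70 for the tumours, 0.60 for day 14 and 0.37 for day 0. These differences were taken on log2(CPM + 1), and they were 0.90, 0.32 and 0.39 over the non-targeting guides. The tumours differed most for guide 3379, at 40.5-fold in CPM, and guide 3377, at 9.28-fold, in opposite directions, with 4 counts in tumour 2 for guide 3379 and 11 in tumour 1 for guide 3377. The 2 tumours of guide 2458 differed 1.82-fold. In 5 of the 10 guides, 2457, 2458, 2459, 3377 and 3381, no 2 of the 3 groups overlapped, against 18.8% of all guides. In 3 of these, 2457, 3377 and 3381, the tumours were lowest and day 0 highest, against 7.37% of all guides. Nothing is read from these counts, since the gene was chosen on the same values.

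Called one by one, hardly any guide passed the threshold of the fit. The edgeR quasi-likelihood test with Benjamini-Hochberg adjustment over the 3607 guides at 0.05 called 1 BICDL1 guide higher in tumours than at day 0, guide 2458, against 0.554% of all guides. It called 0 of the 10 lower, against 1.14% of all guides. Without adjustment, 6 were lower and 1 higher at a p under 0.05, against 12.8% and 12.9%. DESeq2 called 5 lower and 1 higher, against 10.3% and 10.9%. By limma on the authors' normalized values 2 were lower and 1 higher, against 7.21% and 0.36%. The edgeR call of guide 2458 was lost without any 1 of the day 0 or day 14 libraries, when only these groups were fitted, and with the replicate number as a block, whether the tumours were numbered 1 and 2 or both 1.

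At day 14 edgeR called 0 lower and 0 higher, against 0.0% of all guides in either direction. Before adjustment 3 and 0 passed a p under 0.05, against 7.18% and 1.22%. DESeq2 called 0 and 0, against 3.47% and 0.0832%, and limma 0 and 0, against 1.33% and 0.0%. Between tumours and day 14, edgeR called 0 lower, against 0.0% of all guides, and 0 higher, against 0.0277%. Before adjustment, 2 were lower and 1 higher, against 5.54% and 8.54%. DESeq2 called 0 lower and 1 higher, against 2.11% and 3.91%, and limma did too, against 0.333% and 0.166%. Since the gene was chosen for these values, nothing is read from its counts.

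The summaries of the gene, the median over guides and the sum of counts over guides, gave opposite directions in tumours. The median log2 fold change over the 10 guides was -2.56 in tumours over day 0, the 5th lowest of 348 genes. The counts summed over the same guides had a log2 fold change of 1.00 (SE 0.28), the 30th highest. At day 14 the summaries met, at -1.40 for the median, the 19th lowest gene, and -1.36 (SE 0.28) for the sum, the 4th lowest. Among the 49 genes whose guides are all numbered above 1495, the median of BICDL1 was the 2nd lowest in tumours and the 6th lowest at day 14.

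On the TMM scale each tumour gave the same split, more clearly in tumour 1. Against the mean of day 0, the median guide change was -2.22 and -2.59 in the tumours and -1.23 and -1.32 in the cultures, on the log2 scale. The summed change was 1.35 and 0.53 in the tumours and -1.29 and -1.43 in the cultures. On this scale the sum was thus higher than at day 0 in both tumours, and ranked 14th highest in tumour 1 and 143rd in tumour 2. The median was lower in all 4 libraries. In tumour 2 the sum was near the change of the median non-targeting guide, 0.40. As a share of all counts, BICDL1 was at 0.297% in tumour 2, between the 0.293% and 0.309% of day 0, so the rise of the sum there depends on the scaling. Scaling to the non-targeting guides put the median of all guides at -0.53 in tumours and -0.52 at day 14 over day 0, and the sum of BICDL1 in tumours was then 0.43, the 34th highest. Total counts gave 0.49 and the authors' normalized values 0.43.

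The gap between the summaries, sum minus median, was 3.56 in tumours over day 0, where the median gene had 0.41. Only SS18, the gene at the 5′ side of the fusion in synovial sarcoma, had a larger gap, at 4.14. PIAS1, a SUMO ligase, followed at 3.4, RPL13, a ribosomal protein gene, at 3.0, and SUMO2, a small ubiquitin-like modifier, at 2.68. On the TMM scale BICDL1 had the highest summed log2 fold change of the 5, at 1.00, a value that its selection rests on. The sums were -0.04 for SS18, -0.02 for PIAS1, -0.36 for RPL13 and 0.39 for SUMO2. At day 14 the gap of BICDL1 was 0.04, against 0.05 for the median gene.

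A single guide set the sum. Guide 2458 made up 87.1% and 84.6% of the BICDL1 counts in the tumours, against 15.9% and 8.71% in the cultures and 15.8% and 14.4% at day 0. The exact (Clopper-Pearson) 95% intervals of these shares were at most 2.25 percentage points wide and cover counting error only. BICDL1 as a whole took 0.551% and 0.297% of the tumour counts, 0.123% and 0.110% of the culture counts and 0.309% and 0.293% at day 0, with intervals at most 0.0138 points wide. Its 10 guides are 0.274% of the library.

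Without guide 2458 the sum changed sign. The summed log2 difference of the other 9 guides between tumours and day 0 was -1.65, where all 10 gave 0.94 by the same calculation and leaving out any other guide gave 0.99 to 1.19. Over those 9 guides the sum was 877 and 594 CPM in the tumours, 913 and 904 CPM at day 14, and 2315 and 2207 CPM at day 0. Their summed tumours lay slightly below their cultures, and both lay well below day 0. Much of these tumour sums came from guide 2459, at 403 and 316 CPM, and guide 2460, at 325 and 66.8 CPM, so they do not stand for each of the 9. With guide 2458 included, the sum was 6809 and 3858 CPM in the tumours, 1086 and 990 CPM at day 14, and 2750 and 2578 CPM at day 0. The median hardly moved, and lay between -2.69 and -2.43 whichever guide was left out.

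Set directly against the cultures, the tumours divided the guides further. Of the 10 guides, 7 were lower in tumours than at day 14 and 3 higher, with fitted log2 fold changes between -3.84 for guide 2456 and 5.15 for guide 2458. The others that were higher, guides 2459 and 2460, were at 0.38 and 0.04. Scaled to the non-targeting guides, the split was 8 lower and 2 higher, and by total counts 9 and 1. The gene median was -1.03, the 5th lowest of 348, and the summed value 2.36 (SE 0.29), the 2nd highest, which left the largest gap of all genes at 3.39. This comparison and those with day 0 share libraries, so they are not independent of each other.

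The medians of the 2 runs of guide numbers lay further apart in tumours than in culture. Guides 2456 to 2460 were at a median of -1.17 on the log2 scale in tumours over day 0 and guides 3377 to 3381 at -2.69. At day 14 these were -1.32 and -1.41. The first run held both the most depleted guide in tumours, 2456, at -6.13, and the enriched one, 2458, at 3.51. All guides of the second run lay within that range, between -3.82 for guide 3377 and -1.59 for guide 3378. Guide 2457 of the first run was at -3.76. With so few guides a run and guide 2458 in the first, no difference between the runs is read from their medians.

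Robust rank aggregation, the method of the study for combining guides, asks whether the guides of a gene stand unusually near the top of a ranked list. With MAGeCK, the study names BICDL1 among the hits shared by its culture and tumour screens. The ranks below come from a version written for this work, which orders guides by the p-values of the edgeR fit and sets its own cutoff. Ranked by reduction in tumours, 6 of the 10 guides lay within the cutoff and BICDL1 came 5th of 348 genes. Ranked by increase in tumours, 1 guide lay within it and the gene came 26th. At day 14, 1 guide lay within the narrower cutoff for reduction and BICDL1 came 91st, and with the cutoff widened to the first 25% of guides 9 lay within it and the gene came 5th. Of these cutoffs, only the wider one thus placed BICDL1 high in culture, where the fitted changes of all 10 guides lay between -2.29 and -1.05. At day 14, 0 guides lay within the cutoff for increase, which was at its lowest allowed fraction, 0.01 of the guides.

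In 8 genes the median was below -1 and the sum above 0 in tumours over day 0. They were BICDL1, FFAR1, HPN, PAOX, PPM1D, RPS27A, SAE1 and SUMO2. Against day 14 there were 2, BICDL1 and SS18, and at day 14 over day 0 there were 0.

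Among the 5 genes nearest to BICDL1 over both summaries in the 4 later libraries were TYW1B, RPS27A, SAE1 and AAMP, at Euclidean distances of 2.38, 2.47, 2.48 and 2.49 on the log2 scale. TYW1B, a near copy of TYW1, had a median of -0.72 and a sum of 0.90 in tumours, and -1.34 and -0.52 at day 14. Its sum in tumours was near the 1.00 of BICDL1, while its median was closer to 0 than the -2.56 of BICDL1. Guides against copies of this kind may cut at more than 1 place, which was not tested. By the correlation of summed log2 CPM over the 6 libraries instead, the 5 nearest genes were TNFRSF6B, SLC15A3, KIAA1324L, EPS8L1 and TYW1, at Pearson r of 0.925 to 0.995, and 0 of the 5 were shared. All genes share these 6 libraries and their depths, so r is a description.

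Of a list of 20 genes for microtubules and their motors, 7 had guides in the counts used here. They were KIF5C, a kinesin heavy chain, KLC4, a kinesin light chain, CDK5RAP2 of the centrosome, CENPF and SKA2 of the kinetochore, DNAI1, a chain of axonemal dynein, and IQCG of motile cilia. In tumours over day 0, 0 of the 7 were called lower and 1, KIF5C, higher by summed counts, against 2.87% and 19.8% of all genes. Before adjustment 0 were lower and 2 higher at a p under 0.05, against 4.6% and 36.5% of all genes, and DESeq2 called 0 lower and 2 higher, against 4.31% and 49.4%. The summed log2 fold change of KIF5C was 1.55 (SE 0.20, edgeR adjusted p = 0.0083), with 1.5 and 1.59 in the tumours. Its guide median was 0.10 and its highest guide 3.84, so the median of KIF5C was near 0 where that of BICDL1 was -2.56.

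At day 14, 0 of these 7 genes were called in either direction by edgeR, against 0.862% of all genes lower and 0.0% higher, with 0 at a p under 0.05 before adjustment, against 6.9% and 2.01%, and 0 by DESeq2, against 5.17% and 2.01%. The lowest guide median among them was that of SKA2, at -1.67, and the medians of the 7 ran up to 0.47. DYNC1H1, DCTN1, RAB6A, RAB6B and KIF1C, the partners of the adaptor named above or their main subunits, were not analysed here.

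Of a list of 16 vesicle traffic genes, 5 had guides in the counts. AP1S2 of a clathrin adaptor complex, SYNJ1, a lipid phosphatase of synaptic vesicles, ARFGAP3 of the Golgi and VPS26B of retromer were called higher in tumours than at day 0 by summed counts, and TGFBRAP1 of endosomes was not. By edgeR 19.8% of all genes were called higher. Before adjustment 4 were higher at a p under 0.05, against 36.5% of all genes, and DESeq2 called 4 higher, against 49.4%. The summed log2 fold changes were 0.69 to 0.94 for the 4 called and 0.03 for TGFBRAP1. Of the 5, edgeR called 0 lower in tumours, against 2.87% of all genes. At day 14 it called 0 in either direction, against 0.862% lower and 0.0% higher. Before adjustment 0 passed a p under 0.05 in each, against 4.6% lower in tumours, and 6.9% lower and 2.01% higher at day 14. DESeq2 also called 0 lower in tumours, against 4.31%, and 0 at day 14, against 5.17% lower and 2.01% higher. Before its adjustment 1 was higher at day 14 at a p under 0.05, a count from which nothing is read, since its share over all genes is not given here. Scaled to the non-targeting guides or to total counts, 0 of the 5 were called in tumours, while KIF5C was still called, at 1.01 and 1.03. These scalings put the median of all guides at -0.53 and -0.50 in tumours over day 0. The shares of all genes called with them are not given here, so nothing is read from these counts. On the TMM scale the guide medians of the 5 vesicle genes in tumours lay between -0.20 and 0.68, and the lowest was above the -2.56 of BICDL1.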

How the data were processed

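Guide counts of HS-SY-II Cas9 cells were analysed for 6 libraries. The deposited counts are whole reads per guide that the authors obtained with MAGeCK from the guide library. A second deposited table of normalized signal holds each count column times 1 constant per library, by an unstated rule (not given in the sources used here). In their processing notes the submitters list MAGeCK and hg38, with no version. No column lacked a sample.

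Guides averaging 30 or more counts at day 0 were kept (3607 of 3653). Counts were scaled by TMM and fitted in 1 model of 3 groups with edgeR 4.0.16 (glmQLFit, glmQLFTest, R 4.3.3, common dispersion 0.303), with Benjamini-Hochberg adjustment at 0.05 over all guides. Changes per library are log2(CPM + 1) minus the day 0 mean. Counts summed per gene were fitted with the library sizes of the guides. The sums with a guide left out are differences of mean log2(CPM + 1). Rank aggregation was written for this work. Its cutoff was set at the fraction of guides whose one-sided FDR was below 0.25, and at 0.01 where that fraction was smaller. Replicate numbers mark the duplicate transductions by the methods, unsettled for the tumours, and deviations of same-numbered libraries correlated at 0.0694 (day 14 and day 0), 0.00198 (tumours and day 0) and 0.00252 (tumours and day 14). The edgeR step and the rank aggregation were tested on simulated data.

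Alternatives were other scalings and guide filters, DESeq2 1.42.0, limma 3.58.1 on log2 of the normalized values plus 1, the groups compared alone, a replicate block, the same block with both tumours as replicate 1 (chosen after seeing the data), other summaries over guides, and each library or guide left out. Named genes were BICDL1, the 5 genes nearest to it over 8 values, the 5 with the largest gap in tumours, and the measured members of a microtubule and a vesicle list. Of the nearest genes, the closest is not reported here. The gene and the lists were chosen with earlier results of these data known. Promoter, protein and guide sequences of BICDL1 were not used here. Genome matches used hg38 with GENCODE v44, Python 3.11.15 and numpy 2.4.6.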

Additional observations from a re-analysis of the deposited data

Results flagged for a closer look

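Guide 2458 moved in opposite directions in the 2 settings, with log2 changes against the day 0 mean of 3.88 and 3.02 in the tumours and -1.21 and -2.21 in the cultures. Its fitted log2 fold change of tumours over day 14 was 5.15. On the TMM scale the counts summed over the BICDL1 guides did so too, at 1.35 and 0.53 in the tumours and -1.29 and -1.43 in the cultures. The value of tumour 2 was near the 0.40 of the median non-targeting guide. The fitted difference of the sum between tumours and day 14 was 2.36. The edgeR fit did not call guide 2458 between tumours and day 14, whereas DESeq2 and limma did, and the gene was chosen for this pattern, so these calls are a description. No test of the summed counts is given, for the same reason. Guide 2458 is part of the sum, so these are not separate results.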

How the results depend on the processing

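All values here are log2 fold changes of BICDL1 unless they count guides or give ranks. The summed value in tumours over day 0 reversed to -2.18 as the mean of the guide changes, -2.39 as their trimmed mean and -1.65 without guide 2458. Over day 14 it reversed to -0.69, -1.03 and -0.33. At day 14 the mean of the guides gave -1.49 and the sum without guide 2459 gave -1.46, in place of -1.36.

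Scaling to the non-targeting guides gave medians of -3.10 in tumours and -1.93 at day 14 over day 0, and a sum of -1.89 at day 14. Total counts gave medians of -3.07 in tumours over day 0 and -1.53 over day 14. The authors' normalized values gave medians of -3.48 in tumours and -1.86 at day 14 over day 0, and -1.37 in tumours over day 14. With them the sum at day 14 was -1.86, the gap 3.91 in tumours over day 0 and -0.00046 at day 14.

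In tumours over day 0, guides called lower numbered 1 with non-targeting scaling, 1 with total counts, 5 with DESeq2 and 2 with limma, in place of 0. Of all guides, DESeq2 called 10.3% lower, limma 7.21% and the main fit 1.14%. In tumours over day 14, 1 guide was called higher with median-ratio factors, non-targeting scaling, DESeq2 and limma, in place of 0. Of all guides, DESeq2 called 3.91% higher, limma 0.166% and the main fit 0.0277%. Fitting only the groups compared called 4 guides lower at day 14 and 0 higher in tumours. The replicate block gave a median of -2.25, a gap of 3.21 and 0 guides higher in tumours over day 0. With both tumours as replicate 1, a block chosen after seeing the data, these were -2.28, 3.23 and 0, and the gap at day 14 was 0.0022. Neither block changed any other call. Shares over all guides are not given here for the other settings, and nothing is read from these counts of BICDL1 guides.

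Leaving out each library in turn gave medians of -2.63 to -2.13 in tumours and -1.54 to -1.24 at day 14 over day 0, and -1.13 to -0.27 in tumours over day 14. The sums were 0.53 to 1.35, -1.40 to -1.25 and 1.89 to 2.71, and the gaps 3.09 to 3.73, -0.093 to 0.13 and 2.62 to 3.64. Guides called lower numbered 0 to 6 in tumours and 0 to 3 at day 14 over day 0, and 0 to 2 in tumours over day 14. Those called higher numbered 0 to 1, 0 to 0 and 0 to 1. The single call of guide 2458 over day 0 was lost without any 1 of the day 0 or day 14 libraries. A group left with 1 library is assumed to vary like the others, and nothing is read from the calls of these fits. Their shares over all guides are not given here. The lowest sum in tumours over day 0, 0.53, was without tumour 1, and the smallest median over day 14, -0.27, without day 14 replicate 2.

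In rank aggregation a cutoff of 0.25 moved BICDL1 to rank 5 for loss at day 14 (91 before), 3 for loss in tumours (5 before) and 13 for gain in tumours over day 14 (8 before). Ranking by fold change gave 8 for loss in tumours and 5 for gain over day 14. Across all alternatives 263 values kept their direction and lay within the replicate spread or 1.5 times the count, 60 moved and 9 reversed. The cause of these shifts was not tested. With 2 libraries a group, the SE of a guide reached 1.85 in tumours over day 0, for guide 3379 with 4 counts in tumour 2 and day 0 libraries that differed 12.5-fold.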
